A study of Mus musculus with 2 samples.

Results

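The proteasome genes described here encode the core, the regulatory cap, the alternative activators, an inhibitor and the assembly chaperones of the constitutive proteasome. They were chosen by symbol alone, as genes whose name starts with Psma, Psmb, Psmc, Psmd, Psme, Psmf or Psmg and a digit, leaving out the 3 interferon-inducible catalytic subunits Psmb8, Psmb9 and Psmb10. This rule found 46 of the 13138 genes of the deposited table. It took in Psmc3ip, whose product acts in meiotic recombination and is no proteasome protein, so 45 proteasome genes remained. All 45 genes that the role lists name were in the table, and all 46 passed the minimum of a mean of 50 on the count scale that the comparison used, which kept 12809 genes.

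RNA was sequenced from primary mouse chondrocytes grown ex vivo as micromass cultures, dense drops in which the cells lay down cartilage matrix. The Cre-labelled library came from cells given an adenovirus with Cre recombinase, with the genotype label hdac3-knockout, and the GFP-labelled library from cells given a GFP control adenovirus, labelled wild-type. The strain label of both is C57Bl/6, and the sources used here give neither the Hdac3 allele on which Cre would act, nor the animals' age, nor how many animals or dishes were combined. Hdac3 encodes a histone deacetylase, and the stated question was which genes differ in chondrocytes that lack it. There was 1 library per group, so no difference has a replicate check, no p-value is given, and every comparison is between 2 libraries and not between conditions.

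Deposited by the authors were log2 normalized counts, the depth behind them is unknown, and no interval can be given. The total of Hdac3 did not separate the labels, at 10.68 in the Cre-labelled library and 10.69 in the GFP-labelled library, and the libraries are therefore called by their labels. Of 11 chondrocyte markers measured, all were present in both libraries, with Col2a1 at 19.97 and 20.35. In the Cre-labelled library 9 were lower by 1.2-fold or more, where 6.25% of all genes compared were. The ratio of the summed values of the 11 markers was 0.732. Leukocyte markers were present as well: 13 of 15 lay above 0, where 49.9% of all genes compared did, and none was at 0. In the Cre-labelled library 7 of the 15 were at least 1.2-fold higher and 0 lower, where 7.88% and 6.25% of all genes compared were. The log2 values of the leukocyte markers ran from 7.40 to 13.98 in the GFP-labelled library and from 7.85 to 14.82 in the Cre-labelled library. The ratio of their sums was 1.54, in which Lyz2, the highest marker in both libraries, weighs most. The median difference of these markers was 0.26 on the log2 scale. In bulk cultures such as these, a change in the number of cells of a type cannot be told apart from a change in RNA per cell.

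The proteasome is the protease complex that degrades proteins tagged with ubiquitin. Its core is a barrel of stacked rings, in which alpha subunits form the gate and beta subunits carry the catalytic sites, and its regulatory cap binds, unfolds and feeds in the substrate through a ring of ATPases in the base and a lid that removes ubiquitin. Activators such as PA28 and PA200 can dock on the core in place of the cap, dedicated chaperones build core and cap, and interferon exchanges the catalytic subunits for those of the immunoproteasome, which favours peptides for antigen presentation. In chondrocytes, which secrete large amounts of matrix, the proteasome also degrades proteins returned from the endoplasmic reticulum and regulators such as the inhibitor of NF-kappaB.

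The promoter windows shown belong to the members that stood apart and to 1 catalytic subunit that did not. Each runs from 250 bases before to 50 bases after an annotated start, is written 5′ to 3′ and comes from RefSeq on GRCm38.p6. Capitals mark matches on either strand to the motifs searched, which were CCAAT, the antioxidant response element core TGACNNNGC bound by NRF factors, the core AANNGAAA bound by interferon regulatory factors and the STAT site core TTCNNNGAA. Psme1 and Psme2 encode the paired subunits of PA28, Psmd10 a cap assembly chaperone and Psmb5 a catalytic subunit. Of the 2 windows listed for Psme2, which overlap, the outer one is shown.
Psme1, chr14:55578244-55578543, plus strand: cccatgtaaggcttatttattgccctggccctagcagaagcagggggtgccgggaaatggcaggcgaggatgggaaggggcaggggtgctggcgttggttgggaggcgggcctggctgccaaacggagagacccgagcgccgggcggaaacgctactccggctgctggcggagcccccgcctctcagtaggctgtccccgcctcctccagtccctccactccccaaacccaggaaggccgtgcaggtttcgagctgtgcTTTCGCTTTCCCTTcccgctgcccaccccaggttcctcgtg
Psme2, chr14:55591052-55591351, minus strand: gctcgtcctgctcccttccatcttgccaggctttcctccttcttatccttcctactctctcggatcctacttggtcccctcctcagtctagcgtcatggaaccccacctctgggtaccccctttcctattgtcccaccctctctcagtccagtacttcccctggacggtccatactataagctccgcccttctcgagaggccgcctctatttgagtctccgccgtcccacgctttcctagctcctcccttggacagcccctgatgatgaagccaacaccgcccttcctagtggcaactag
Psmd10, chrX:140956662-140956961, minus strand: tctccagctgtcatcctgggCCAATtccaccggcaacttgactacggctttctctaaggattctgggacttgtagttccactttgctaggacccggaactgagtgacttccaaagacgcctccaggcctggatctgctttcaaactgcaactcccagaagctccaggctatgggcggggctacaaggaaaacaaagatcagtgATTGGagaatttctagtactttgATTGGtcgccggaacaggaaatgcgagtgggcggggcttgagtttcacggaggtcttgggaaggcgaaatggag
Psmb5, chr14:54617946-54618245, minus strand: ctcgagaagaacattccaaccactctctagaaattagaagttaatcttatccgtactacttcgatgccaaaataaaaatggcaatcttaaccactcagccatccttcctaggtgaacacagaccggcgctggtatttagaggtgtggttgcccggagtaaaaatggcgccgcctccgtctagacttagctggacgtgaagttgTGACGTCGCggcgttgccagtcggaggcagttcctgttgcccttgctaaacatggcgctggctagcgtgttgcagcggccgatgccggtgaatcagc

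The Psme1 window held 2 overlapping matches to AANNGAAA, on its minus strand and just past the start, from base 260 and from base 266. Neither Psme2 window held a match to any of the 4 motifs. The Psmd10 window held CCAAT in 3 places, the nearest to the start from base 227, and the Psmb5 window held TGACNNNGC from base 204. RefSeq windows were at hand for 37 of the 45 proteasome genes, 40 windows in all. AANNGAAA was found in 32.5% of these windows against 23.9% of all 32851 windows of the same length and 17.8% of the 11987 windows of genes in the deposited table. TGACNNNGC was found in 15% against 12.4% of all windows and 14.4% of those of genes in the table, in Psmb5, Psmb6, Psmc6, Psmd12, Psmd9 and Psme4. CCAAT was found in 32.5% against 37.4% and 37.8%, and TTCNNNGAA in 5% against 8.3% and 6.89%. Of the 13 genes whose window held AANNGAAA, only Psme1 was past 1.2-fold, and a match describes letters in a window and not a bound site.

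Proteasome genes were close to level between the libraries, with 3 genes standing above the rest in the Cre-labelled library. Psmd10 differed by 0.36 on the log2 scale (1.28-fold), Psme1 by 0.27 and Psme2 by 0.20 (1.15-fold), and no other member differed by more than 0.16 on the log2 scale in either direction. Of the 46 members, 2 (4.35%) were at least 1.2-fold higher, where 7.88% of all genes compared were, and 0 were at least 1.2-fold lower, where 6.25% were. No member reached 1.5-fold, which 3.2% of all genes compared did in either direction. Of the 45 proteasome genes, 24 lay above 0, near the 49.9% of all genes compared that did. The median difference, Cre minus GFP, was 0.0046 over the 45 proteasome genes and -0.00041 over all genes compared.

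**Figure D1:**
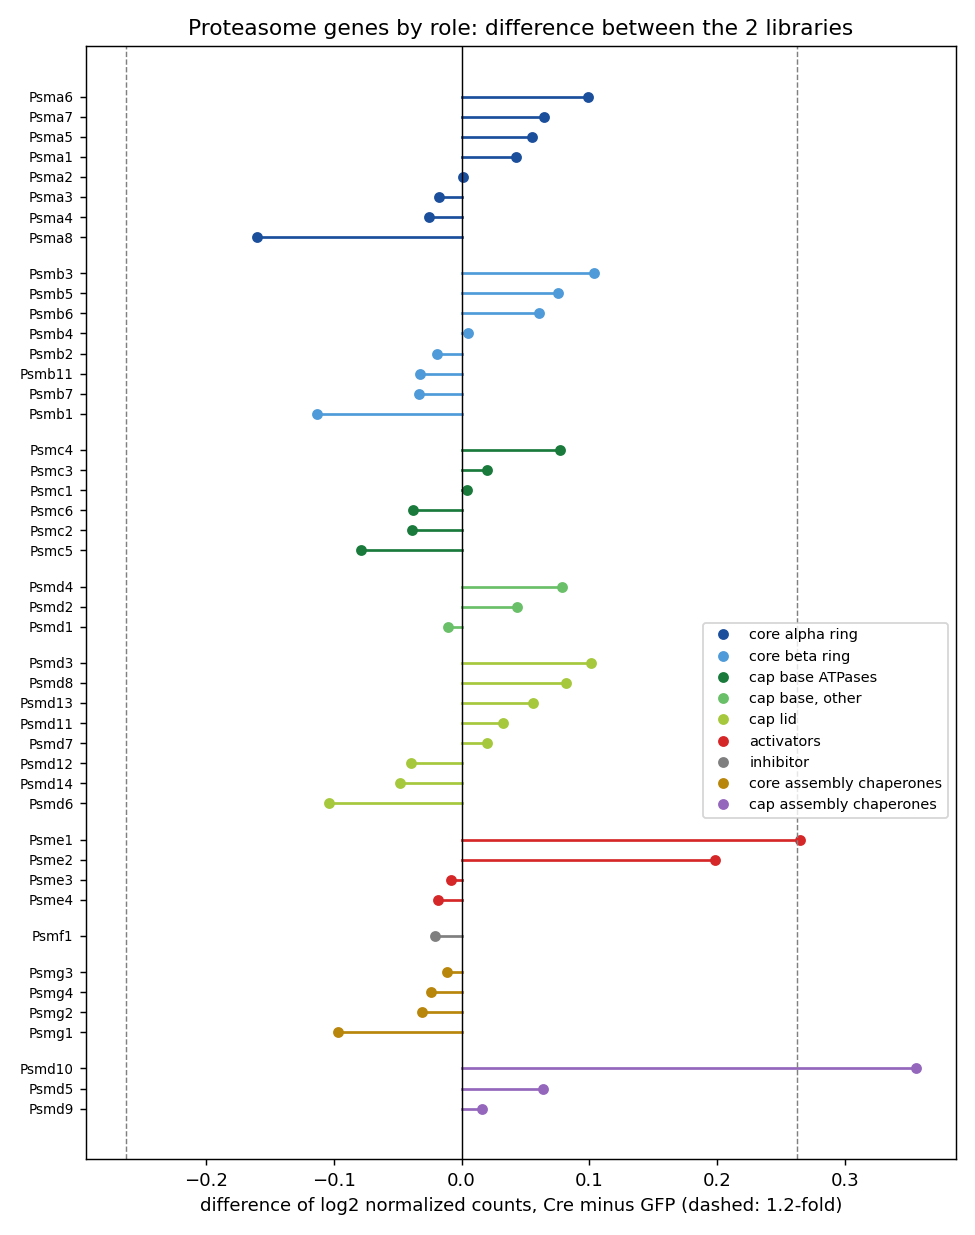
Difference of log2 normalized counts, Cre minus GFP, for the 45 proteasome genes (1 point per gene, 1 library per group, coloured by role), with dashed lines at 1.2-fold in each direction. Psmd10 and Psme1 reach the upper line, Psme2 lies below it at 0.20, and the lowest member is Psma8 at -0.16.

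The 31 subunits that build the core and the cap in most tissues varied little. Their differences ran from -0.11 for Psmb1 to 0.10 for Psmb3, with a median of 0.020 and a standard deviation over genes of 0.060. Their mean log2 values ran from 11.17 to 13.10. The 2316 genes compared in that range of abundance had a standard deviation of 0.25 and a median of -0.020. Of them, 14.5% differed by at least 1.2-fold in either direction, against 0 of the 31 subunits. Their differences ran from -1.15 to 2.36, and such extremes widen a standard deviation. By quartiles the contrast was smaller, at -0.098 and 0.060 for the 2316 genes and -0.030 and 0.063 for the 31 subunits. This is a description of 2 libraries without a test, and the transform used by the authors may shrink differences, in these subunits as in other genes of the same abundance. Summed over the 31 subunits, the linear values in the Cre-labelled library were 1.01 times those in the GFP-labelled library.

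**Figure D2:**
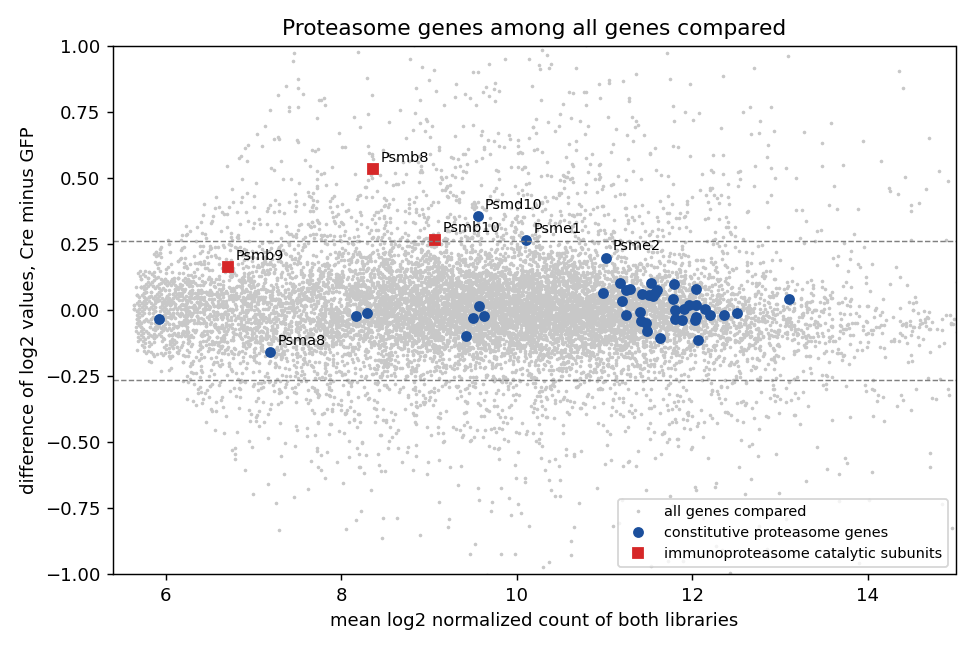
Difference of log2 values, Cre minus GFP, against the mean log2 normalized count of both libraries for all genes compared (grey), constitutive proteasome genes (blue circles) and immunoproteasome catalytic subunits (red squares), with dashed lines at 1.2-fold and 177 genes outside the plotted area. The core and cap subunits form a tight group between 11.17 and 13.10 on the abundance axis, while Psmd10, Psme1, Psme2 and the 3 red squares lie above it.

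The alpha ring forms the outer gate of the core. Psma6 had a log2 value of 11.84 in the Cre-labelled library and 11.74 in the GFP-labelled library, the highest difference of the ring at 0.10. Psma7 had 11.60 and 11.54, and Psma5 had 11.58 and 11.52. These 3 genes and Psma1, at 11.80 and 11.76, lay slightly above 0. Psma2 had 11.80 in both libraries. Psma3 had 12.35 and 12.37, and Psma4, which encodes the subunit whose tail helps to close the gate, had 12.03 and 12.06. Of the 7 broadly expressed alpha subunits, 5 thus lay above 0 and 2 below, with a median of 0.043, and none was past 1.2-fold.

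Psma8 encodes an alpha subunit of the testis that takes the place of Psma7 in germ cells. It had 7.11 in the Cre-labelled library and 7.27 in the GFP-labelled library, or 55.5 and 62.0 normalized counts per kilobase of merged exons, and its difference of -0.16 was the lowest of all members. Of all genes compared, 72.6% had a smaller absolute difference than Psma8. Psma8 and Psmb11, the beta subunit of the thymus, are therefore given apart from the ring members that every tissue uses. Psmb11 had 5.91 and 5.95, and with 12.6 and 12.9 normalized counts per kilobase it was the lowest member per length.

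The beta ring holds the proteolytic sites. Psmb5, which carries the chymotrypsin-like site and whose promoter is printed above, had 11.64 in the Cre-labelled library and 11.57 in the GFP-labelled library. Psmb6, with the caspase-like site, had 11.46 and 11.40. Psmb7, with the trypsin-like site, had 11.79 and 11.82. The catalytic subunits therefore differed by 0.076, 0.061 and -0.034, which puts them on both sides of 0. Among the structural beta subunits, Psmb3 had the highest difference of the core, with 11.23 against 11.12. Psmb1 had the lowest of the ring, with 12.01 against 12.12, and Psmb4 (12.15 against 12.14) and Psmb2 (11.23 against 11.25) differed by 0.0051 and -0.020. None of the 7 broadly expressed beta subunits was past 1.2-fold, and their summed linear values were 23020 in the Cre-labelled library and 23010 in the GFP-labelled library.

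The base of the cap holds the ring of 6 ATPases that unfolds substrates. Psmc4 had the highest difference, at 11.28 in the Cre-labelled library and 11.20 in the GFP-labelled library. Psmc5 had the lowest, at 11.45 and 11.53. Psmc3 (0.020), Psmc1 (0.0046), Psmc6 (-0.038) and Psmc2 (-0.039) lay between, so that 3 ATPases were above and 3 below 0. Psmd2 and Psmd1 encode the large scaffold subunits of the base. Psmd2 had 13.13 and 13.08, and Psmd1 had 12.50 and 12.51. Psmd4, which encodes a ubiquitin receptor, had 11.33 and 11.25.

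Subunits of the lid showed the same narrow spread. Psmd14, the deubiquitinase that removes ubiquitin chains before degradation, had 11.45 in the Cre-labelled library and 11.50 in the GFP-labelled library. Its partner Psmd7, an inactive relative that pairs with it, had 11.97 and 11.95. Psmd11, a scaffold subunit known to set the amount of assembled proteasome in stem cells, had 11.22 and 11.18. None of these 3 differed by more than 0.05. The lid's extremes were Psmd3, at 11.58 and 11.48, and Psmd6, at 11.59 and 11.69. Psmd8 (0.082), Psmd13 (0.056) and Psmd12 (-0.040) lay between them, so that 5 of 8 lid genes were above 0, with a median of 0.026.

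The alternative activators differed among themselves. Psme1, the alpha subunit of PA28, had 10.24 in the Cre-labelled library and 9.98 in the GFP-labelled library, a difference of 0.27 that lies barely past the log2 value of 1.2-fold, 0.263. Psme2, its beta subunit, had 11.11 and 10.92, a difference of 0.20. Both PA28 genes were thus higher in the Cre-labelled library, and 86.0% and 79.2% of all genes compared had smaller absolute differences. They lie close together on chromosome 14, Psme1 at 55578123 to 55581529 on the plus strand and Psme2 at 55587441 to 55591113 on the minus strand (GRCm38). Psme3, which encodes the nuclear PA28 gamma that is not induced by interferon, had 11.40 and 11.41. Psme4, which encodes PA200, an activator involved in the breakdown of acetylated histones, had 12.19 and 12.21. Psme3 and Psme4 were therefore level, at -0.0085 and -0.019, and the sign of the first turned under a scaling that equalised totals after leaving out the precursor ribosomal RNA gene Rn45s and Lars2. Without Psme1 and Psme2, the median of the activators moved from 0.095 to -0.014. Psmf1, which encodes the inhibitor PI31, had 9.62 and 9.64.

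The PA28 genes share their known interferon control with the immunoproteasome, which was left out by the rule. Psmb8 differed by 0.53, Psmb10 by 0.27 and Psmb9 by 0.16, against 0.076, -0.034 and 0.061 for the constitutive subunits Psmb5, Psmb7 and Psmb6 that they replace. The ratio of Psmb8 to Psmb5 was 1.37 times higher in the Cre-labelled library, that of Psmb10 to Psmb7 1.23 times and that of Psmb9 to Psmb6 1.07 times. Per length of merged exons, Psmb8 stood at 3.30% of the level of Psmb5 in the Cre-labelled library and at 2.41% in the GFP-labelled library. With the longest transcript as the length these shares were 6.86% and 4.996%, so the share depends on the annotation. Its ratio between libraries is the same by construction, because both libraries are divided by the same lengths. Psmb9 overlaps Tap1 by 212 exon bases on the opposite strand and Psmb8 overlaps an antisense gene by 498, and the strand setting of the counting is not given in the sources used here.

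Genes that work with the immunoproteasome in class I antigen presentation were also higher in the Cre-labelled library. All 10 measured were at least 1.2-fold higher, where 7.88% of all genes compared were, and the median difference of the 10 was 0.42. This list was chosen with earlier results of these data known. Tapbp, which loads peptides, differed by 0.75, the class I heavy chain gene H2-K1 by 0.72, the class I transactivator gene Nlrc5 by 0.59 and the interferon response factor gene Irf1 by 0.44. Leukocytes express PA28 and immunoproteasome genes at high levels, and leukocyte markers were higher in the same library, led by Emr1 at 1.08 and Cd14 at 1.04 while Ptprc, the pan-leukocyte gene, differed by 0.26. Csf1r differed by 0.085 and Cd68 by -0.054. The part of leukocyte RNA in the values of Psme1, Psme2 and the immunoproteasome genes was not tested.

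Assembly chaperones lay on both sides of 0. Psmd10, also known as gankyrin, a chaperone of the ATPase ring that is known to bind MDM2 and the retinoblastoma protein as well, had 9.74 in the Cre-labelled library and 9.38 in the GFP-labelled library. Its difference of 0.36 was the highest of all members, and 91.3% of all genes compared had a smaller absolute difference. The gene lies on the X chromosome, at 140948429 to 140956728 on the minus strand (GRCm38), and its exons overlap no other annotated gene. Psmd5 and Psmd9, which act on the same base assembly pathway, had 11.01 against 10.95 and 9.58 against 9.56. These cap chaperones that work beside Psmd10 thus differed by 0.064 and 0.016. Psmd9 shares 25.5% of its merged exon bases with a noncoding gene on the opposite strand.

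The core chaperones, which pair up to guide the alpha ring, were all slightly lower in the Cre-labelled library. Psmg1 had 9.37 against 9.47, a difference of -0.097. Psmg2, its partner, had 9.48 against 9.51. Psmg3 had 8.29 against 8.30 and Psmg4, its partner, 8.16 against 8.19. None of the 4 was past 1.2-fold, their median was -0.027, and Psmg3 turned to 0.0030 under the scaling that leaves out Rn45s and Lars2. Pomp, the maturation factor of the beta ring, differed by 0.043. Psmc3ip, which belongs to the rule by spelling only, had 7.19 against 7.25.

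Levels of different genes were compared per length, as the linear normalized count divided by the kilobases of merged exons in GENCODE M21, to which all 46 members were matched. The median log2 level per kilobase was 10.46 over 14 core subunits, 10.44 over the 6 ATPases and 9.99 over the 8 lid subunits. It was 9.49 for the activators, 8.85 for the core chaperones and 8.13 for the cap chaperones. Psmf1 stood at 6.94. By these medians, structural parts of the proteasome were more abundant per length than the factors that assemble or inhibit it, and this order of the core, the ATPases, the lid, the activators, the chaperones and the inhibitor was the same with the longest transcript as the length, where the core had 11.54 and Psmf1 7.70. Within the core, however, the order depended on the annotation. With merged exons and the mean of both libraries, the highest was Psmb5, at 3554 normalized counts per kilobase in the Cre-labelled library and 3372 in the GFP-labelled library, and the lowest Psmb1, at 897 and 970. With the longest transcript the extremes were Psmb4 and Psma2, so no order among core subunits is given.

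**Figure D3:**
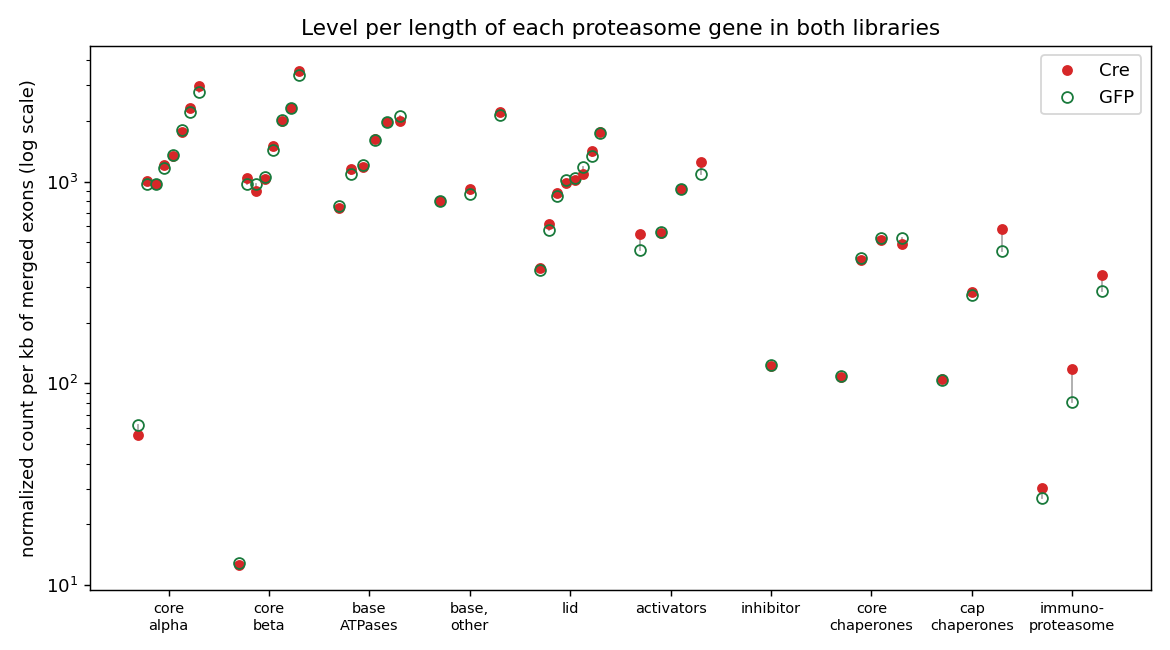
Normalized count per kilobase of merged exons (log axis) for each proteasome gene by role, with filled red points for the Cre-labelled library, open green points for the GFP-labelled library and grey lines joining the points of 1 gene. The points of a core or cap gene nearly coincide, the lowest points of the core groups are Psma8 and Psmb11, and the widest gaps are those of Psmb8, Psmd10, Psmb10 and Psme1.

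Psme2 stood at 1256 normalized counts per kilobase in the Cre-labelled library and 1095 in the GFP-labelled library, and Psme1 at 549 and 457. Per length, by merged exons and also by the longest transcript, Psme2 was the more abundant of the PA28 pair in both libraries. Psme2 has a near-identical copy, Psme2b on chromosome 11, with 99.4% identity over 794 bases, so reads of these 2 genes can be confused, and how reads with several alignments were counted is not given. Pseudogene transcripts with at least 95% identity over at least 300 bases were found for 8 members, Psma3, Psma4, Psma5, Psmb3, Psmb5, Psmc1, Psmd2 and Psmd11, whose values are uncertain to that extent. Psmd10 and Psme1 had no such copy.

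Other genes of the ubiquitin and proteasome pathway were likewise near level, apart from a few. Adrm1 and Shfm1, cap subunits without a Psm name, differed by 0.080 and -0.049. Among 14 measured genes for proteasome-associated ubiquitin handling, 0 were at least 1.2-fold higher and 1 lower, where 7.88% and 6.25% of all genes compared were. The median of the 14 was -0.047. The lower gene was Fbxo7, which encodes a ubiquitin ligase adaptor that binds PI31, at 9.65 against 10.03. Zfand5, which encodes an activator of the proteasome, differed by 0.17, Akirin2, which encodes the factor that brings proteasomes into the nucleus, by -0.11, and AI314180, which encodes the proteasome adaptor ECM29, by -0.10. Usp14, a deubiquitinase of the cap, differed by -0.018. Of 5 ubiquitin and E1 genes none was past 1.2-fold, with Uba6, which encodes an E1 enzyme, highest at 0.095. Of the 8 measured genes of the p97 segregase, which extracts proteins for degradation, none was either, with Nploc4 highest at 0.15 and Vcp, p97 itself, at -0.0061. In lists of 5 to 14 genes, counts of 0 or 1 lie near the shares of all genes compared.

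The transcription factors known to drive proteasome genes differed by unequal amounts. Nfe2l1, which encodes NRF1, the factor that restores proteasome synthesis after inhibition, had 14.41 in the Cre-labelled library and 14.46 in the GFP-labelled library. Its activating protease gene Ddi2 and the deglycosylase gene Ngly1 differed by -0.045 and -0.096. This branch was thus close to level. Nfe2l2, which encodes NRF2, the oxidative stress factor, differed by 0.21. The small MAF genes, whose products pair with both factors, were higher in the Cre-labelled library: Maff by 0.61, Mafg by 0.34 and Mafk by 0.19. Of the 8 genes of this list, 2 were at least 1.2-fold higher and 0 lower, where 7.88% and 6.25% of all genes compared were. The promoters with TGACNNNGC, the sequence these factors bind, belonged to members with differences between -0.040 for Psmd12 and 0.076 for Psmb5.

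**Figure D4:**
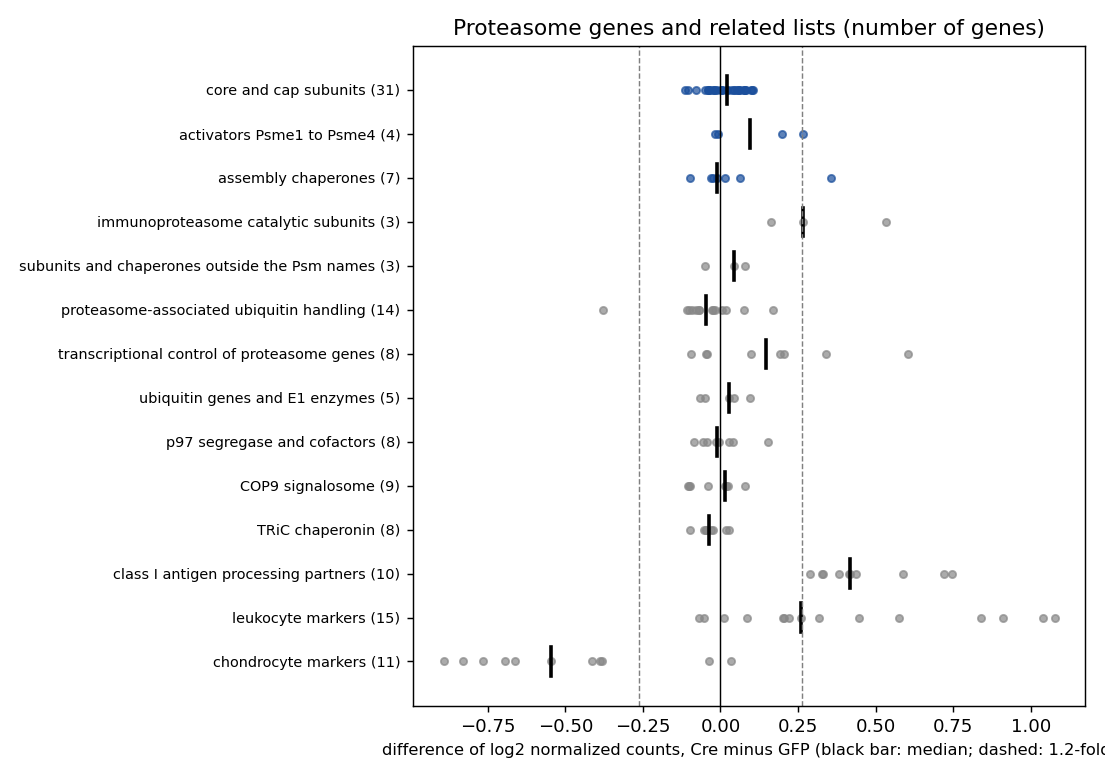
Difference of log2 normalized counts, Cre minus GFP, for the genes of each list (1 point per gene, number of genes in brackets), with proteasome groups in blue, other lists in grey, black bars at the median and dashed lines at 1.2-fold. The 31 core and cap subunits stay between -0.11 and 0.10, while all 10 class I antigen processing genes lie past the upper line, as do 7.88% of all genes compared.

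Other large cytosolic complexes gave a similar picture. The COP9 signalosome, whose subunits are relatives of the lid and which removes NEDD8 from ubiquitin ligases, had differences from -0.10 to 0.081 over 9 genes, with a median of 0.014. The TRiC chaperonin, a folding ring for actin and tubulin, had differences from -0.10 to 0.028 over 8 genes, with a median of -0.038. None of these 17 genes was past 1.2-fold, where 7.88% of all genes compared were higher and 6.25% lower by that much. Their standard deviations over genes, 0.067 and 0.041, were near the 0.060 of the core and cap subunits. A narrow spread was therefore not particular to the proteasome among the complexes looked at.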

How the data were processed

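RNA was measured in 2 libraries, 1 labelled Cre and 1 labelled GFP. Per the labels' protocols, TRIzol was used for extraction and an Illumina TruSeq v2 mRNA kit for the libraries. The build mm10 and the tools TopHat2 2.0.6, HTSeq and bcl2fastq 1.8.4 are named in the submitters' processing notes. The authors deposited log2 values of normalized counts per gene, with their mean and difference. The transform is not described, and a regularized log, which shrinks differences of less abundant genes, is inferred from the column heading. In all 13138 rows the deposited difference is GFP minus Cre (within 1e-06), whereas differences here are Cre minus GFP. Depth is unknown.

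Symbols were read from the row names. The comparison used genes whose mean log2 value was 5.64 or more, which is a count of 50. Calls rest on size alone, at 1.2-fold, 1.5-fold or 2-fold. The counting code was checked on simulated differences planted well past 1.5-fold, which does not test calls near 1.2-fold. Coordinates and lengths come from GENCODE M21 (GRCm38, the assembly also called mm10). Similar copies were sought with BLAST 2.17.0, and promoters come from RefSeq (GRCm38.p6). Python 3.11.15 and pandas 2.3.3 were used. All members could be named, and of other lists up to 4 genes with the largest absolute difference, with Pomp, Adrm1, Nfe2l1, Nfe2l2 and the immunoproteasome fixed by name. Genes named outside this rule, among them Usp14, Vcp, Ddi2, Ngly1, Ptprc, Csf1r, Cd68 and Col2a1, were chosen after their values were seen. Members, lists, thresholds and motifs were chosen with earlier results of these data known. A gene of the ubiquitin list is not reported here. Alternative folds, minimums, scalings, means and lengths are given in the closing section.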

Additional observations from a re-analysis of the deposited data

How the results depend on the processing

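The 2 members at least 1.2-fold higher, Psmd10 and Psme1, fell to 0 at 1.5-fold and at 2-fold, and 0 members were lower at any of these. With no minimum, with one raised to 500 (which left 41 proteasome genes) and under the scalings, the counts stayed at 2 and 0. These alternatives could not remove either gene, because both lie above the raised minimum and every scaling raised the differences. Psme1, at 0.265 against 0.263 for 1.2-fold, would drop out under a small shift the other way. The scalings added at most 0.015 to every difference and turned the sign of 3 members, Psme3, Psmd1 and Psmg3, all within 0.012 of 0. Scaling without Rn45s and Lars2 and leaving out named members were chosen after the data were seen. Of 86 alternative medians, 85 stayed within 0.1 of the main one, and the exception was the activators without Psme1 and Psme2, at -0.014. That tolerance is larger than every main median, so staying within it does not show that a median is stable, and 10 of the 86 changed sign. The medians of the beta ring (-0.0072), of all chaperones (-0.012) and of all members (0.0046) changed sign under some alternatives and give no direction. With the longest transcript as the length, median log2 levels per kilobase were higher in all groups, at 11.36 for the alpha ring, 11.59 for the beta ring, 11.54 for the core, 11.07 for the ATPases, 10.87 for the other base subunits, 11.17 for core and cap, 10.68 for the lid, 9.97 for the activators, 9.07 and 8.84 for the core and cap chaperones, 7.70 for the inhibitor and 7.66 for the immunoproteasome, since this length is shorter or equal. With it the other base subunits stood above the lid, and with merged exons (9.80) below it. No paired analysis was possible because there is only 1 library in each group.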
